A study of Mus musculus with 15 samples.

Results

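RNA of mouse tibialis anterior muscle was compared between 14 days after a single cardiotoxin injection (the Maturation Stage) and no injection (Uninjected). The comparison used 7 of the 15 libraries of the series, 4 of the Maturation Stage and 3 Uninjected, and covered 12253 of 56748 listed gene identifiers, namely those that reached 0.5 FPKM in 3 or more of these libraries. FPKM are fragments scaled to the length of the gene and the size of the library. The remaining 8 libraries were taken 4 days (Proliferation Stage) and 7 days (Differentiation Stage) after cardiotoxin and are used below only to place the day 14 levels.

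Both groups were male C57BL/6 mice that entered the study together, drank heavy water before sacrifice and were sacrificed at the end of the same study period. Maturation Stage mice received 50 µL of cardiotoxin at 0.1 mg/mL in saline with 0.2% meloxicam, an anti-inflammatory drug, into one tibialis anterior. Uninjected muscle received no cardiotoxin, and no vehicle injection is described for it, so the toxin, the needle and the meloxicam cannot be told apart. The period of heavy water also differed between the groups. The sources describe both never-injected mice and the uninjected limb of injected mice, and the labels do not fully state which of these gave the Uninjected libraries. The labels call the material bulk tissue, whereas the protocol describes frozen purified muscle fibers, and the study describes single fibers with the cells that stay attached to them. The labels number the subjects, and nothing further says that replicates are separate animals, so p-values measure the spread between these libraries.

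Cardiotoxin, a snake venom protein, lyses muscle fibers and spares many of the satellite cells beneath their basal lamina. Satellite cells then divide and fuse into new fibers, which first make embryonic and cardiac isoforms of the contractile proteins and later replace them with adult fast isoforms. Macrophages clear the debris, and fibro-adipogenic progenitors lay down a provisional collagen-rich matrix that is remodelled as the fibers mature.

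The libraries were shallow, with 1479282 to 5544489 fragments in genes for the Maturation Stage and 2302617 to 4455081 for Uninjected muscle. The shallowest was Maturation Stage replicate 2. Mitochondrially encoded transcripts took 18.95 to 27.6% of the summed FPKM at day 14 and 24.6 to 38.0% in Uninjected muscle, so the share left for other genes also differed. Fast and shared fiber proteins summed to 129706 to 157468 FPKM at day 14 and 91405 to 145876 FPKM in Uninjected muscle, high in every library as the muscle label requires. Defining markers of lymphocytes and granulocytes were near or at 0: S100a8 was listed at 0 in all 7 libraries, Cd79a in 6 of 7, and Cd3e reached at most 0.426 FPKM. Ighm, the heavy chain of immunoglobulin M, was present in every library, at 5.84, 29.96, 6.92 and 21.5 FPKM at day 14 and 11.3, 18.5 and 1.76 FPKM in Uninjected muscle, and overlapped. Ptprc, the leukocyte common antigen, was at most 0.2096 FPKM. In bulk material, fewer cells of a type and less RNA per cell cannot be told apart.

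At day 14, 3 genes rose against Uninjected muscle and 0 fell by limma on log2(FPKM + 0.5) at a Benjamini-Hochberg adjusted p under 0.05, which is 0.0245% and 0.00% of the genes tested. The genes that rose were Mdfi, Inha and Gadl1. Without multiple-test adjustment, limma gave a p under 0.05 for 965 higher genes (7.88%) and 653 lower genes (5.33%). The median log2 fold change over all genes was 0.00. Every Maturation Stage library stood above every Uninjected library for 821 genes (6.70%) and below for 720 genes (5.88%). For all other genes the groups overlapped. Of the 821, 92 were among 178 genes with no Uninjected library at 0.5 FPKM, which were tested only through day 14. Apart from Mdfi, Inha and Gadl1, the genes named below did not pass limma at the adjusted threshold and are given as values. With the count precision of the shallow libraries modelled by voom weights, an alternative chosen after seeing the data, 104 genes passed as higher (0.861%) and 20 as lower (0.166%). That count rested on single libraries: it was 3 higher and 1 lower without Uninjected replicate 3, 14 and 3 without Maturation Stage replicate 3, and 170 and 87 without Maturation Stage replicate 2.

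Mdfi encodes the MyoD family inhibitor, which binds the myogenic transcription factors and holds them back from the nucleus (ENSMUSG00000032717, chromosome 17 from 47815328 to 47834691, minus strand, GRCm38). It measured 6.93, 3.75, 6.703 and 3.75 FPKM in the 4 Maturation Stage libraries and 0.133, 0.327 and 0.3305 FPKM in the 3 Uninjected libraries. The groups did not overlap, and Uninjected muscle was close to the detection floor, with 1, 2 and 4 fragments behind its values against 37, 16, 54 and 59 at day 14. No Uninjected library reached the 0.5 FPKM of the filter, so Mdfi was tested only through day 14 and had to stand higher there. Its separation and p-values are not independent of that filter. The log2 fold change was 2.88 (SE 0.27, limma adjusted p = 0.0298), and the exact permutation test of mean FPKM gave p = 0.0286, the smallest that 35 divisions of 7 libraries allow. Mdfi stood at 4.23 to 6.14 FPKM on day 4 and 7.203 to 11.3 FPKM on day 7, so the day 14 libraries overlapped with day 4 and lay under every day 7 library. Day 14 was lower than day 7 by limma (log2 difference -0.79, adjusted p = 0.0313 in a fit of all 15 libraries).

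Inha encodes the inhibin alpha subunit, a secreted antagonist of activin signalling (ENSMUSG00000032968, chromosome 1 from 75507077 to 75510366, plus strand). Its level was 25.9, 22.6, 37.5 and 28.3 FPKM at day 14 and 2.23, 4.12 and 0.866 FPKM in Uninjected muscle. Every day 14 library was several times over the highest Uninjected one, and the means were 28.6 ± 6.38 FPKM (SD, n = 4) and 2.404 ± 1.63 FPKM (SD, n = 3). The log2 fold change was 3.47 (SE 0.37, limma adjusted p = 0.0458). Unlike Mdfi, Inha was highest at the last time point: it measured 5.01 to 7.101 FPKM on day 4 and 7.602 to 15.5 FPKM on day 7, and every day 14 library lay above all of these. The day 14 level exceeded day 7 by a log2 difference of 1.31 (SE 0.31, limma adjusted p = 0.0184) and day 4 by 2.13 (adjusted p = 0.000423).

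Gadl1 encodes a decarboxylase that can form beta-alanine, a building block of the muscle dipeptide carnosine (ENSMUSG00000056880, chromosome 9 from 115909455 to 116076176, plus strand). Its mean lay under the 5 FPKM needed to be named by rule, so it was chosen after its values were seen. It measured 3.85, 7.06, 3.995 and 3.83 FPKM at day 14 and 0.8199, 0.5601 and 0.566 FPKM in Uninjected muscle, a 7.22-fold difference of the means. The groups did not overlap, and replicate 2 stood apart at the top of the Maturation Stage. The log2 fold change was 2.14 (SE 0.24, limma adjusted p = 0.0458). On day 4 Gadl1 was at 0.739 to 1.34 FPKM and on day 7 at 1.66 to 5.82 FPKM, and day 14 exceeded day 4 by a log2 difference of 1.65 (limma adjusted p = 0.00149).

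The calls of Mdfi, Inha and Gadl1 were near the threshold and needed most of the libraries. None of the 3 passed in limma without Maturation Stage replicate 1, without Maturation Stage replicate 3 or without Uninjected replicate 1, where 0 genes were called in each case and an unadjusted p under 0.05 was reached by 839, 664 and 956 higher and 509, 412 and 632 lower genes. Mdfi alone of the 3 passed without Maturation Stage replicate 4, Inha alone without Uninjected replicate 2, Mdfi and Gadl1 without Maturation Stage replicate 2, and Mdfi and Inha without Uninjected replicate 3. Mdfi was called in 13 of 20 alternative settings (adjusted p 5.19e-05 to 0.284), Inha in 10 of 20 (0.000258 to 0.302) and Gadl1 in 8 of 20 (0.00879 to 0.312).

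**Figure D1:**
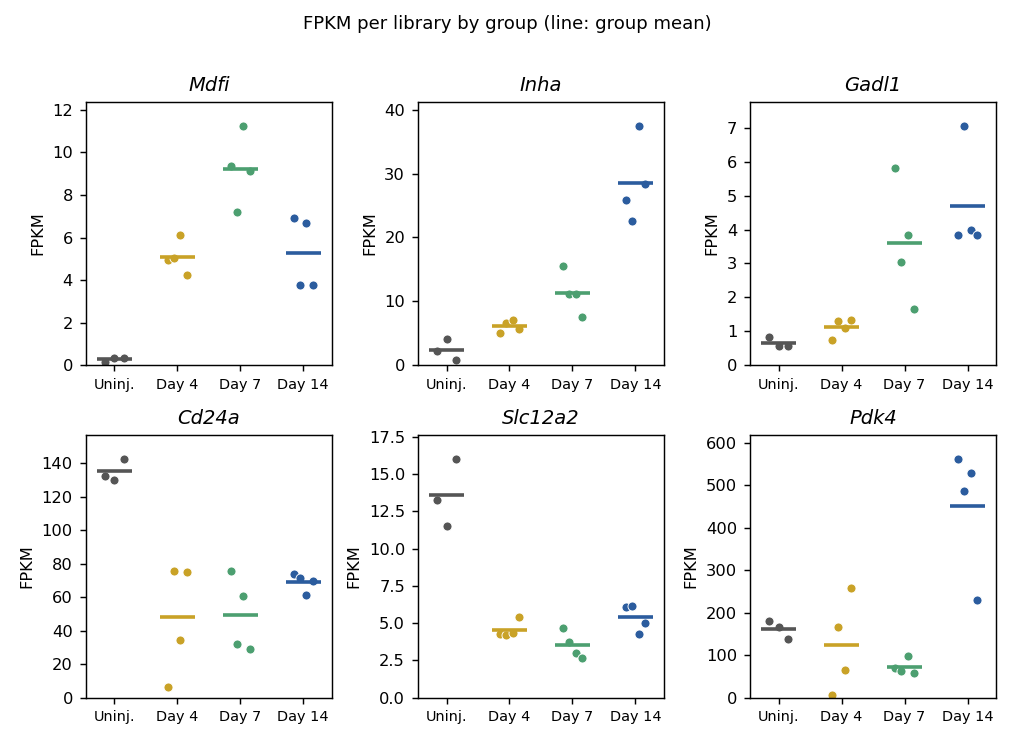
FPKM per library (points) and group mean (bar) for Mdfi, Inha, Gadl1, Cd24a, Slc12a2 and Pdk4 in Uninjected muscle (n = 3) and 4, 7 and 14 days after cardiotoxin (n = 4 each); each vertical axis starts at 0. Day 14 and Uninjected points do not overlap in any of the 6 panels, and Inha is highest at day 14, where it reaches 25.9, 22.6, 37.5 and 28.3 FPKM.

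The windows around the annotated starts of the 3 called genes are shown because CAGCTG can be read in them directly. CAGCTG is one form of the E-box, the motif bound by the myogenic factors that Mdfi restrains. Other forms of the E-box were not searched or marked. The windows are RefSeq sequence on GRCm38.p6, 250 bases before to 50 bases after a transcript start, written 5′ to 3′ on the gene's strand, with CAGCTG in capitals where it occurs. CAGCTG reads the same on both strands and does not overlap another searched motif. The windows are Inha at chr1:75507359-75507658 on the plus strand, Mdfi at chr17:47834642-47834941 on the minus strand and Gadl1 at chr9:115909205-115909504 on the plus strand.
Inha: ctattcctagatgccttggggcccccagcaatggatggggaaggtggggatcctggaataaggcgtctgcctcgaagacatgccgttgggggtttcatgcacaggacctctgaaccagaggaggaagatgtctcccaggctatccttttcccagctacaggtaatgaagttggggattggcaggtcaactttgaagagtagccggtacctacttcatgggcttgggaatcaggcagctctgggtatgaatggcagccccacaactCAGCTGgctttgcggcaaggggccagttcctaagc
Mdfi: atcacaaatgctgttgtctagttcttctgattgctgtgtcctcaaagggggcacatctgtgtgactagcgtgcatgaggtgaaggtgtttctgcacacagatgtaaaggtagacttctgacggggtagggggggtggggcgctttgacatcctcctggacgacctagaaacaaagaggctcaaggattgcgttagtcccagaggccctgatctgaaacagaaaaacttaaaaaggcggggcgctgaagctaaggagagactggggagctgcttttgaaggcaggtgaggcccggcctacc
Gadl1: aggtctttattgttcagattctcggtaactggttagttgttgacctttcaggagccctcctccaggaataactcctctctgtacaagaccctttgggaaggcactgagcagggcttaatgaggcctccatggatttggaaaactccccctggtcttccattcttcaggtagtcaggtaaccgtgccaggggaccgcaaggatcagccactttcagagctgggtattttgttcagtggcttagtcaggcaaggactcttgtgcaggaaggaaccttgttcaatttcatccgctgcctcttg
The Inha window held 1 CAGCTG and the Mdfi and Gadl1 windows held 0, against 5355 of 32851 RefSeq promoter windows of this length with at least 1 (16.3%). The Inha window lies around a start 532 bases from the start of the gene in the GENCODE annotation used for lengths, and Mdfi has 2 RefSeq windows, of which the one at its annotated start is printed. These matches are descriptions of letters in the window.

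The next genes by p-value, on the higher side, missed the adjusted threshold. H19, an imprinted long non-coding RNA abundant in fetal muscle, measured 526, 319, 635 and 554 FPKM at day 14 and 151, 128 and 153 FPKM in Uninjected muscle (log2 fold change 1.78, limma adjusted p = 0.06098). No day 14 library came near the highest Uninjected one, and day 7 was higher still at 1456 to 1873 FPKM. Lgmn, the lysosomal protease legumain, was at 24.7, 17.5, 24.9 and 23.6 FPKM against 10.3, 8.06 and 8.69 FPKM (1.28, adjusted p = 0.06098). Plekho1, a membrane-bound partner of casein kinase 2, was at 12.3, 8.67, 12.02 and 16.3 FPKM against 3.03, 3.03 and 4.35 FPKM (1.67, adjusted p = 0.06098). Both were higher again earlier, Lgmn at 82.1 to 248 FPKM and Plekho1 at 33.6 to 58.1 FPKM on day 4. Hfe, a class I-like protein of iron regulation, had 11.6 ± 0.966 FPKM at day 14 (SD, n = 4) and 5.46 ± 0.719 FPKM in Uninjected muscle (SD, n = 3; 1.02, limma adjusted p = 0.0746). Tlcd2, a membrane lipid regulator, had 5.29 ± 2.698 FPKM (n = 4) and 0.754 ± 0.312 FPKM (n = 3; 2.14, limma adjusted p = 0.0991). Eno1, the enolase isoform that muscle replaces with Eno3 as it matures, had 38.6 ± 8.52 FPKM (n = 4) and 13.9 ± 3.59 FPKM (n = 3; 1.45, limma adjusted p = 0.117); it has near-identical copies in the genome, as does Cox6c2, a processed pseudogene named by the same rule (log2 fold change 3.02, limma adjusted p = 0.0934), so both values are uncertain. With voom weights Lgmn, Plekho1, Hfe, Tlcd2, Eno1 and H19 passed (adjusted p 0.00189 for H19 to 0.0438 for Tlcd2) and Cox6c2 did not (0.132).

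On the lower side no gene passed. Cd24a, a small glycosylated surface protein, measured 74.1, 71.3, 61.4 and 69.9 FPKM at day 14 and 133, 130.4 and 143 FPKM in Uninjected muscle, and the highest day 14 library lay well under the lowest Uninjected one. Its log2 fold change was -0.96 (SE 0.13, limma adjusted p = 0.06098, with voom weights 0.0148). Slc12a2, the sodium-potassium-chloride cotransporter NKCC1, measured 6.05, 6.17, 4.29 and 5.02 FPKM at day 14 and 13.3, 11.5 and 16.02 FPKM in Uninjected muscle. It also showed no overlap, at a log2 fold change of -1.26 (SE 0.18, limma adjusted p = 0.0702, with voom weights 0.00749). Both stood low at the earlier times too: Slc12a2 was at 2.66 to 4.69 FPKM on day 7, and Cd24a at 29.1 to 76.0 FPKM. Among other named genes on the lower side were Ppp1r3a, which anchors protein phosphatase 1 to glycogen (-0.79 on the log2 scale), Tigar, a fructose bisphosphatase (-0.895), Smad4, the shared mediator of transforming growth factor beta signals (-0.67), and Pik3ip1, an inhibitor of phosphoinositide 3-kinase (-1.205). Eepd1 (-0.98), Dnajc21 (-0.78), Cpeb4, a regulator of translation by polyadenylation (-0.94), and Vezf1, a zinc finger factor of blood vessels (-0.68), completed this set. The limma adjusted p of all 8 was 0.136, and no library of one group reached the other in any of them.

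Genes of developing fibers stood above Uninjected muscle or overlapped with it. Of 19 tested, 8 had every day 14 library above every Uninjected one (42.1%, beside 6.70% over all genes) and 0 below. The median log2 fold change was 0.70, beside 0.00 over all genes, and none of the 19 passed limma. H19, given above, is one of the 8. The filter favours such genes, since one near 0 in Uninjected muscle is tested only if it is high at day 14. Here 3 of the 19 reached 0.5 FPKM in no Uninjected library, and 1 of these 3 is counted in the 8. Actc1, cardiac alpha-actin, measured 3167, 902, 2470.2 and 1329.8 FPKM at day 14 and 413, 315 and 105 FPKM in Uninjected muscle. The lowest day 14 library was over the highest Uninjected one, but levels varied widely within each group (log2 fold change 2.87, limma adjusted p = 0.136), and reads can be split with Acta1, whose coding sequence is nearly the same. Myl4, the embryonic and atrial light chain, measured 3.00, 2.19, 7.201 and 5.71 FPKM against 2.13, 0.654 and 1.05 FPKM (1.46, adjusted p = 0.211). Mest, an imprinted gene of growing tissue, measured 1.47, 1.47, 3.503 and 2.69 FPKM against 0.7298, 0.128 and 1.23 FPKM (1.27, adjusted p = 0.2398). Vim, the intermediate filament vimentin of myoblasts and stromal cells, measured 32.7, 20.5, 49.8 and 42.8 FPKM against 15.2, 16.3 and 12.5 FPKM (1.22, adjusted p = 0.146, with voom weights 0.0468). Myh3, the embryonic myosin heavy chain, was low in both groups, at 0.6698, 1.08, 1.77 and 1.72 FPKM against 0.951, 0 and 0.253 FPKM in Uninjected muscle and 301 to 509 FPKM on day 4. Its groups overlapped.

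Most adult contractile genes overlapped between day 14 and Uninjected muscle. Of 26 fast and shared fiber genes, 4 lay wholly above and 2 wholly below (15.4% and 7.69%, beside 6.70% and 5.88% over all genes). The median log2 fold change of the list was 0.07. Acta1, skeletal alpha-actin, measured 34035, 34132, 32123 and 34433 FPKM at day 14 and 24982, 38083 and 29728 FPKM in Uninjected muscle, with overlapping groups. Mylpf, the fast regulatory light chain, had 13521 ± 1884 FPKM at day 14 (SD, n = 4) and 7806 ± 2707 FPKM in Uninjected muscle (SD, n = 3), at a log2 fold change of 0.84. Myl1, the fast essential light chain (0.77), and Casq1, the fast calcium store protein calsequestrin (1.08), also lay wholly above. Below were Neb, nebulin, at 164 ± 21.3 FPKM (n = 4) and 220.4 ± 21.1 FPKM (n = 3), a log2 fold change of -0.43, and Tnnc2, fast troponin C. Tnnc2 is listed at 0, 0, 0 and 0.491 FPKM at day 14 and 0.514, 0.632 and 0.639 FPKM in Uninjected muscle, near 0 for a gene that every fast fiber uses, so its listed values may be a failed estimate and no direction is read from them. Ryr1, the calcium release channel, lay wholly below at -0.48, and Ttn, titin, overlapped at -0.27. The limma adjusted p of Mylpf, Myl1, Casq1, Neb and Ryr1 were 0.2098, 0.197, 0.203, 0.2898 and 0.278.

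Slow fiber, calcium, junction and membrane lists also held separated genes, beside 6.70% above and 5.88% below over all genes. Of 15 slow fiber genes 2 lay wholly above and 0 below (median log2 fold change 0.46). These were Sln, sarcolipin, which slows the sarcoplasmic calcium pump, at 40.01, 6.05, 26.2 and 9.38 FPKM against 2.18, 0 and 0.194 FPKM (4.06, limma adjusted p = 0.136), and Atp2a2, the slow and cardiac calcium pump, at 11.1, 11.2, 13.1 and 10.2 FPKM against 9.06, 4.66 and 5.21 FPKM (0.85, adjusted p = 0.181). The values of Sln varied widely within both groups. Of the 15 slow fiber genes 10 had a log2 fold change above 0 and 5 below. The median ran from 0.12 to 0.86 with each library left out in turn. The summed level of the slow fiber list overlapped, at 341 to 719 FPKM at day 14 and 374 to 942 FPKM in Uninjected muscle. Its members of highest level overlapped and had lower means at day 14: Mybpc1 436 against 502 FPKM and Ankrd2 46.4 against 53.7 FPKM. Of 18 calcium handling genes 3 lay above and 1 below (median 0.20). The neuromuscular junction list had 4 of 19 above and 1 below (median 0.22). Its members differed in direction: Chrnb1, the beta subunit of the acetylcholine receptor, measured 32.1, 21.5, 24.9 and 18.1 FPKM against 7.64, 10.6 and 16.5 FPKM (1.07, adjusted p = 0.173), whereas Rapsn, the rapsyn scaffold that clusters the receptor, measured 14.8, 13.7, 11.7 and 18.3 FPKM against 26.5, 26.1 and 22.1 FPKM (-0.76, adjusted p = 0.146). Dok7, an activator of the junction kinase MuSK, was wholly above at 0.68. The dystrophin complex and costamere list had 2 of 22 above and 1 below (9.09% and 4.55%, near the shares over all genes). Its median was 0.12, and the laminin receptor subunit Itga7 stood at 0.48. Of 17 satellite cell and myoblast genes 3 lay above and 0 below (median 0.22), and of 15 tested cell cycle genes, from a list of 34, 2 and 0 (median 0.14).

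Many collagens stood above Uninjected muscle on the deposited scale. Of 26 collagens and collagen-processing genes, 15 had every day 14 library above every Uninjected one (57.7%, beside 6.70% over all genes) and 0 below. The median log2 fold change of the list was 0.96 (0.75 to 1.24 with each library left out in turn). None of the list passed limma, and 5 passed with voom weights. When libraries were scaled to a common total of non-mitochondrial genes, 6 of the list were wholly above and the median was 0.85. That share was below those of the macrophage list (7 of 19), the antigen presentation list (5 of 14) and the developing fiber list (6 of 19) under the same scaling. Col1a1, the main fibrillar collagen chain, measured 45.7, 112, 135 and 102 FPKM at day 14 and 38.2, 16.6 and 4.51 FPKM in Uninjected muscle (log2 fold change 2.63, limma adjusted p = 0.171). The lowest day 14 library and the highest Uninjected library were close, and Uninjected replicate 3 was far below the rest. Col3a1, of the fine reticular fibrils, measured 33.8, 35.2, 73.5 and 40.6 FPKM against 16.3, 12.2 and 2.76 FPKM (2.31, adjusted p = 0.152), and Col1a2 stood at 2.22. Col4a1, of the basal lamina, measured 49.6, 55.3, 89.4 and 80.7 FPKM against 37.8, 22.8 and 20.8 FPKM (1.33, adjusted p = 0.136, with voom weights 0.0403). Col4a2 (1.14), Col5a3 (1.27), Col15a1 (1.71), the collagen chaperone Serpinh1 (1.19) and the cross-linking enzyme Lox (0.76) lay wholly above as well. Levels on day 7 spanned a wide range, for Col1a1 46.3 to 1044 FPKM.

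Of 33 other matrix genes tested, 31 had a log2 fold change above 0 and 2 below. Of 33 matrix glycoproteins and proteases 8 lay wholly above and 1 below, beside 6.70% and 5.88% over all genes. The median log2 fold change of this list was 0.54, and 5 members lay above under the common non-mitochondrial total. Sparc, a collagen-binding matricellular protein, measured 125, 168, 204 and 199 FPKM against 91.97, 57.2 and 41.6 FPKM (1.496, limma adjusted p = 0.136, with voom weights 0.0344). Eln, elastin (1.198), Mgp, matrix Gla protein (1.405), Postn, periostin (1.99), and the small proteoglycans Lum (1.21) and Bgn (1.099) lay above, and Timp3, an inhibitor of matrix proteases, was the member wholly below at 7.899, 8.72, 8.95 and 8.12 FPKM against 14.2, 12.9 and 12.4 FPKM (-0.61). Markers of fibro-adipogenic progenitors, the cells that make much of this matrix, had 4 of 16 above and 0 below (median 0.38). Clec3b at 0.99 and Cd34 at 0.96 lay above, and 4 of the 16 log2 fold changes were below 0. The summed level of the list was 220.3 to 304 FPKM at day 14 and 224 to 348 FPKM in Uninjected muscle, and the defining markers Pdgfra, Ly6a and Pi16 overlapped between the groups. Gsn, of the same list, had a lower mean at day 14 and overlapped only narrowly. It measured 80.8, 88.8, 92.28 and 72.7 FPKM at day 14 and 162, 131.7 and 92.24 FPKM in Uninjected muscle. Under median-of-ratios scaling 1 member of the list lay wholly below. Tendon markers also stood higher: Tnmd, tenomodulin, measured 6.42, 12.3, 21.3 and 15.4 FPKM at day 14 and 4.86, 1.495 and 0.944 FPKM in Uninjected muscle (2.41, limma adjusted p = 0.138), and Scx, the tendon factor scleraxis, stood at 0.67. Maturation Stage replicate 3 was highest and Uninjected replicate 3 lowest for Col1a1, Col3a1, Sparc and Tnmd. The part of tendon or connective tissue content in the matrix values was not tested.

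Class II antigen presentation genes stood above Uninjected muscle together. Of 14 antigen presentation genes 5 had every day 14 library above every Uninjected one and 0 below (median log2 fold change 0.39). That was 35.7%, beside 6.70% over all genes, and 4 of the list passed with voom weights. H2-Eb1, a class II beta chain, measured 9.24, 7.82, 18.4 and 14.1 FPKM at day 14 and 2.96, 2.86 and 1.18 FPKM in Uninjected muscle, with no overlap (log2 fold change 2.18, SE 0.35, limma adjusted p = 0.117, with voom weights 0.0179). Cd74, the invariant chain that guides class II molecules to the endosome, measured 21.4, 18.6, 46.9 and 34.8 FPKM against 8.33, 6.93 and 4.26 FPKM (2.09, adjusted p = 0.1199). The class II chains H2-Aa (2.09) and H2-Ab1 (1.895) lay above in every library too, with Maturation Stage replicate 3 the highest for all of these. The peptide loader H2-DMa, at 0.8404, 0.4201, 1.56 and 0.854 FPKM against 0.119, 0 and 0.0741 FPKM, passed the filter only through day 14 and had to stand higher there, and it is 1 of the 5 and 1 of the 4 counted. The class I genes B2m and H2-D1 overlapped between the groups, B2m at 101 ± 30.8 FPKM (SD, n = 4) and 81.04 ± 30.1 FPKM (SD, n = 3). Class II genes were far below their day 4 level, which for Cd74 was 310.3 to 467 FPKM.

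Class II promoters carry a conserved Y box, a CCAAT motif, so the windows of H2-Eb1 and H2-Aa, a beta and an alpha chain, are shown, with CCAAT or its reverse complement ATTGG in capitals. They are H2-Eb1 at chr17:34305617-34305916 on the plus strand and H2-Aa at chr17:34287774-34288073 on the minus strand, GRCm38.p6.
H2-Eb1: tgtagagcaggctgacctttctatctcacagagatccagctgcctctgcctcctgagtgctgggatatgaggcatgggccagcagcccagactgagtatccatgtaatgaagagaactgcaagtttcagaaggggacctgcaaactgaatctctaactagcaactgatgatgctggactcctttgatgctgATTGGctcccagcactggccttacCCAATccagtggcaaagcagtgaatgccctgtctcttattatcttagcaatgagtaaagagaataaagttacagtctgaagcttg
H2-Aa: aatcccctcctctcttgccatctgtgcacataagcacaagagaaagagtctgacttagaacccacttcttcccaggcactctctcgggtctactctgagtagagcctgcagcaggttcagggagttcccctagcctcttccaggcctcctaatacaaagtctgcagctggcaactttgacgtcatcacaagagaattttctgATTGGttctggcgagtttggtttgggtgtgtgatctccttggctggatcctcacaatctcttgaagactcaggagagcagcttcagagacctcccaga
H2-Eb1 held 2 matches and H2-Aa 1, and 12289 of 32851 RefSeq windows (37.4%) held at least 1. Both windows also hold CAGCTG, which is not marked in them.

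Macrophage genes stood above Uninjected muscle or overlapped with it, far under their early level. Of 30 macrophage and pan-leukocyte markers 19 were tested. Among these, 6 lay wholly above (31.6%, beside 6.70% over all genes) and 0 below (median log2 fold change 0.78). The summed level of the list was 32.8 to 88.6 FPKM at day 14 and 11.6 to 24.9 FPKM in Uninjected muscle, after 1699 to 4100.1 FPKM on day 4 and 120.3 to 1487 FPKM on day 7. The filter favours genes near 0 in Uninjected muscle that are high at day 14, and 1 of the tested markers, not among the 6, reached 0.5 FPKM in no Uninjected library. Lyz2, lysozyme, measured 12.8, 11.01, 26.2 and 22.4 FPKM against 5.63, 9.22 and 3.30 FPKM (1.52, limma adjusted p = 0.177). Tyrobp, an adaptor of myeloid receptors (2.27), Ctss, the protease cathepsin S (2.03), and the complement subunits C1qb (1.64) and C1qc (1.32) lay wholly above. The defining markers Adgre1, Csf1r and Cd68 overlapped between the groups, Csf1r at 0.905 ± 0.306 FPKM (SD, n = 4) and 0.4004 ± 0.194 FPKM (SD, n = 3). The part of macrophage number in the class II and lysosomal values was not tested.

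The other immune and vascular lists differed in their share of separated genes, beside 6.70% above and 5.88% below over all genes. Of 16 complement and chemokine genes 3 lay above (18.75%) and 0 below. Of the 3, 1 reached 0.5 FPKM in no Uninjected library and was tested only through day 14. Cd55, a brake on complement, lay above at 24.2, 12.7, 21.9 and 14.8 FPKM against 7.204, 5.42 and 7.95 FPKM (1.33, limma adjusted p = 0.136, with voom weights 0.0148). None of 25 interferon-stimulated genes separated in either direction (median log2 fold change 0.16). Endothelial markers had 2 of 25 above and 0 below (median 0.16). Aplnr, the apelin receptor of sprouting vessels, measured 5.95, 6.66, 11.8 and 12.4 FPKM at day 14 and 3.22, 1.09 and 1.17 FPKM in Uninjected muscle (2.11, adjusted p = 0.136, with voom weights 0.0303), whereas the defining markers Pecam1, Cdh5 and Kdr overlapped. Pericyte and smooth muscle markers had 1 of 15 above and 1 below. Schwann, tendon, fat and red cell markers had 2 of 18 above, the tendon genes Tnmd and Scx. Of the lymphocyte, granulocyte and mast cell list only 2 of 27 genes were tested.

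**Figure D2:**
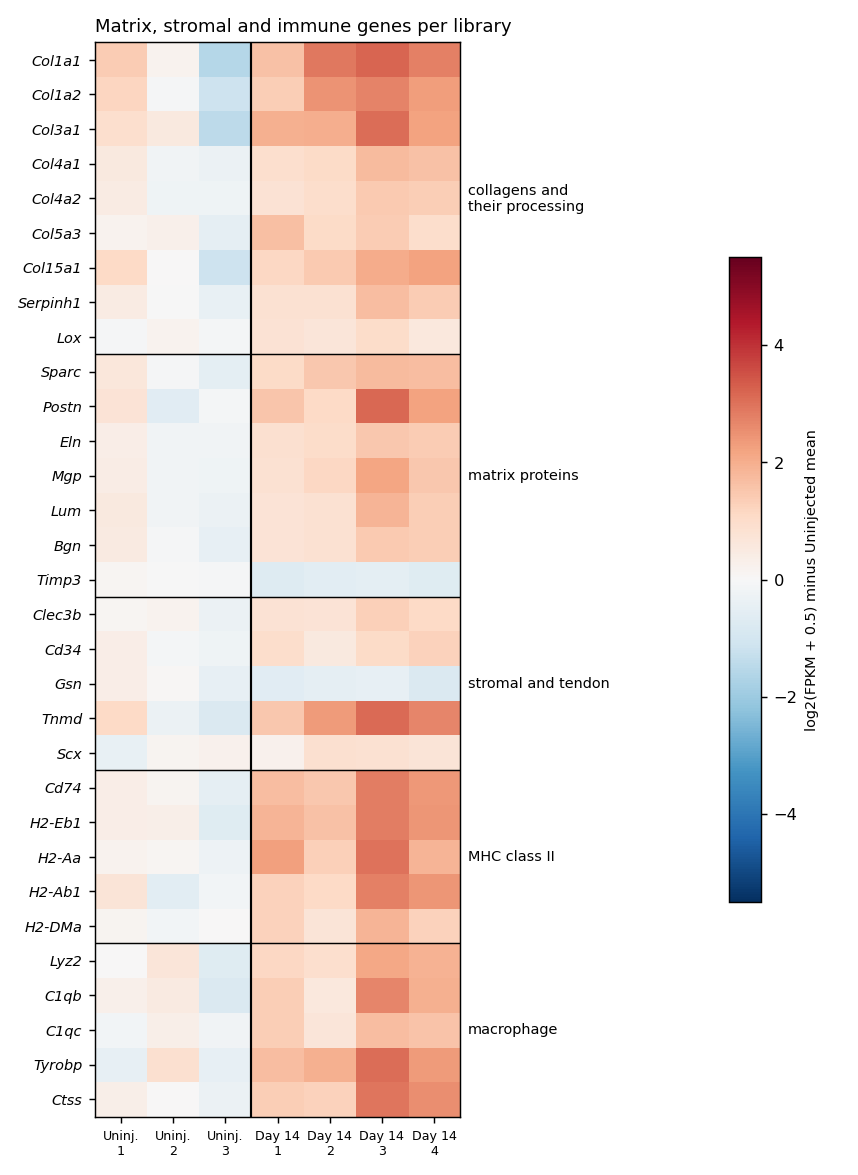
Log2(FPKM + 0.5) minus the Uninjected mean for matrix, stromal, macrophage and class II genes (rows) in each Uninjected and day 14 library (columns), on a colour scale with red above and blue below the Uninjected mean. Most rows are red in all 4 day 14 libraries, often deepest in replicate 3, as for Cd74 at 21.4, 18.6, 46.9 and 34.8 FPKM against 8.33, 6.93 and 4.26 FPKM.

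The genes of fuel choice named here lay wholly above Uninjected muscle. Pdk4, a kinase that inhibits pyruvate dehydrogenase, measured 563, 486, 529 and 230.3 FPKM at day 14 and 182, 166 and 139 FPKM in Uninjected muscle. Replicate 4 was the lowest of the Maturation Stage and still above all Uninjected libraries (log2 fold change 1.405, SE 0.30, limma adjusted p = 0.138, with voom weights 0.0389). On day 7 Pdk4 had been below Uninjected, at 57.6 to 97.8 FPKM, and day 14 exceeded day 7 by a log2 difference of 2.59 (limma adjusted p = 0.0407). Ucp3, the muscle uncoupling protein, measured 174, 99.6, 114 and 64.1 FPKM against 51.4, 38.9 and 42.5 FPKM (1.26, adjusted p = 0.149), and Angptl4, a secreted inhibitor of lipoprotein lipase, stood at 1.53. Thrsp, a factor of fatty acid synthesis, measured 22.5, 21.8, 33.8 and 18.02 FPKM against 9.39, 8.55 and 10.4 FPKM (1.27, adjusted p = 0.1199, with voom weights 0.0191). The fatty acid uptake and oxidation list as a whole had 3 of 33 above (9.09%, beside 6.70% over all genes) and 0 below. Its median log2 fold change was -0.06.

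Genes of sugar handling stood on both sides of Uninjected muscle, and those wholly below come first. Pfkfb3, which makes an activator of glycolysis, measured 8.58, 5.65, 2.23 and 7.76 FPKM at day 14 and 22.8, 71.7 and 18.2 FPKM in Uninjected muscle. The groups did not overlap, and Uninjected replicate 2 was far above the rest (log2 fold change -2.41, limma adjusted p = 0.146). Slc2a4, the insulin-regulated glucose transporter, measured 150.1, 167, 148 and 153 FPKM against 235, 204 and 174 FPKM (-0.39), and Gyg, the glycogen primer glycogenin, stood at -0.49. Pgk1, phosphoglycerate kinase, was wholly above at 0.55. Glycolysis and glycogen genes had 5 of 32 above and 4 below (median 0.02), beside 6.70% and 5.88% over all genes. Gapdh was listed at 78.4, 5.78, 248 and 6.17 FPKM at day 14 and 4.78, 2.81 and 4.02 FPKM in Uninjected muscle, far under its neighbours in the pathway such as Aldoa at 8330.5 ± 668 FPKM (SD, n = 4) at day 14, and it has many near-identical pseudogene copies, so its values are uncertain. It is 1 of the 5 members above, and under median-of-ratios scaling the count above was 3.00. Cholesterol and lipid synthesis had 1 of 24 above and 3 below (median -0.13). Fdft1, squalene synthase, measured 10.8, 14.96, 8.39 and 13.8 FPKM against 24.3, 19.4 and 36.7 FPKM (-1.11, adjusted p = 0.147, with voom weights 0.0472), and Srebf1, the lipogenic master regulator, stood at -0.72.

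Mitochondrially encoded mRNAs had lower means than in Uninjected muscle, while the nuclear genes of the same complexes were centred near 0. All 13 mitochondrial mRNAs had a log2 fold change under 0 (median -0.62). Wholly below were 3 of them, the complex I subunits mt-Nd1, mt-Nd2 and mt-Nd5 (23.1%, beside 5.88% over all genes). mt-Nd2 measured 10443, 10436, 7089.6 and 13584 FPKM at day 14 and 20854, 14129 and 20638 FPKM in Uninjected muscle (-0.85, limma adjusted p = 0.222), with mt-Nd1 at -0.62 and mt-Nd5 at -0.65. mt-Co1, of complex IV, overlapped at -0.45. These 13 genes come from one polycistronic genome and are not independent of each other. Of 43 nuclear respiratory chain subunits 2 lay above and 1 below (median 0.09), the latter being Cox6a2, the muscle form of a complex IV subunit, at 1127 ± 116 FPKM (SD, n = 4) against 1582 ± 215 FPKM (SD, n = 3; -0.49). TCA cycle and pyruvate entry genes had 1 of 28 above and 2 below (median 0.00). Scaling to a common non-mitochondrial total moved the median of all genes by -0.107 on the log2 scale and turned the 821 wholly higher and 720 wholly lower genes into 504 and 1150. Under that scaling 1 mitochondrial mRNA lay wholly below, and under quantile normalization 0 (median with the common total -0.75). The median turned from above to below 0 for the fast fiber, dystrophin complex, glycolysis, nuclear respiratory chain, proteasome, lysosome, ribosomal and immediate early lists.

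Several circadian clock genes stood lower. Of 20 circadian genes 4 lay wholly below and 1 above, beside 5.88% below and 6.70% above over all genes (median log2 fold change -0.29). Hlf, a clock-driven transcription factor, measured 0.434, 1.08, 0.2298 and 0.617 FPKM at day 14 and 2.34, 2.88 and 2.03 FPKM in Uninjected muscle (-1.47, limma adjusted p = 0.136, with voom weights 0.0179). The nuclear receptor Rora, at 5.05, 5.04, 3.46 and 3.65 FPKM against 6.58, 5.88 and 9.65 FPKM (-0.701, adjusted p = 0.2398), and the repressor Cry2 (-0.77) also showed no overlap. Nr1d1, the Rev-erb alpha repressor whose level swings over the day, overlapped at 36.7, 23.3, 40.2 and 19.4 FPKM against 33.95, 66.1 and 31.9 FPKM. The hour of sacrifice of each library is not given in the sources used.

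**Figure D3:**
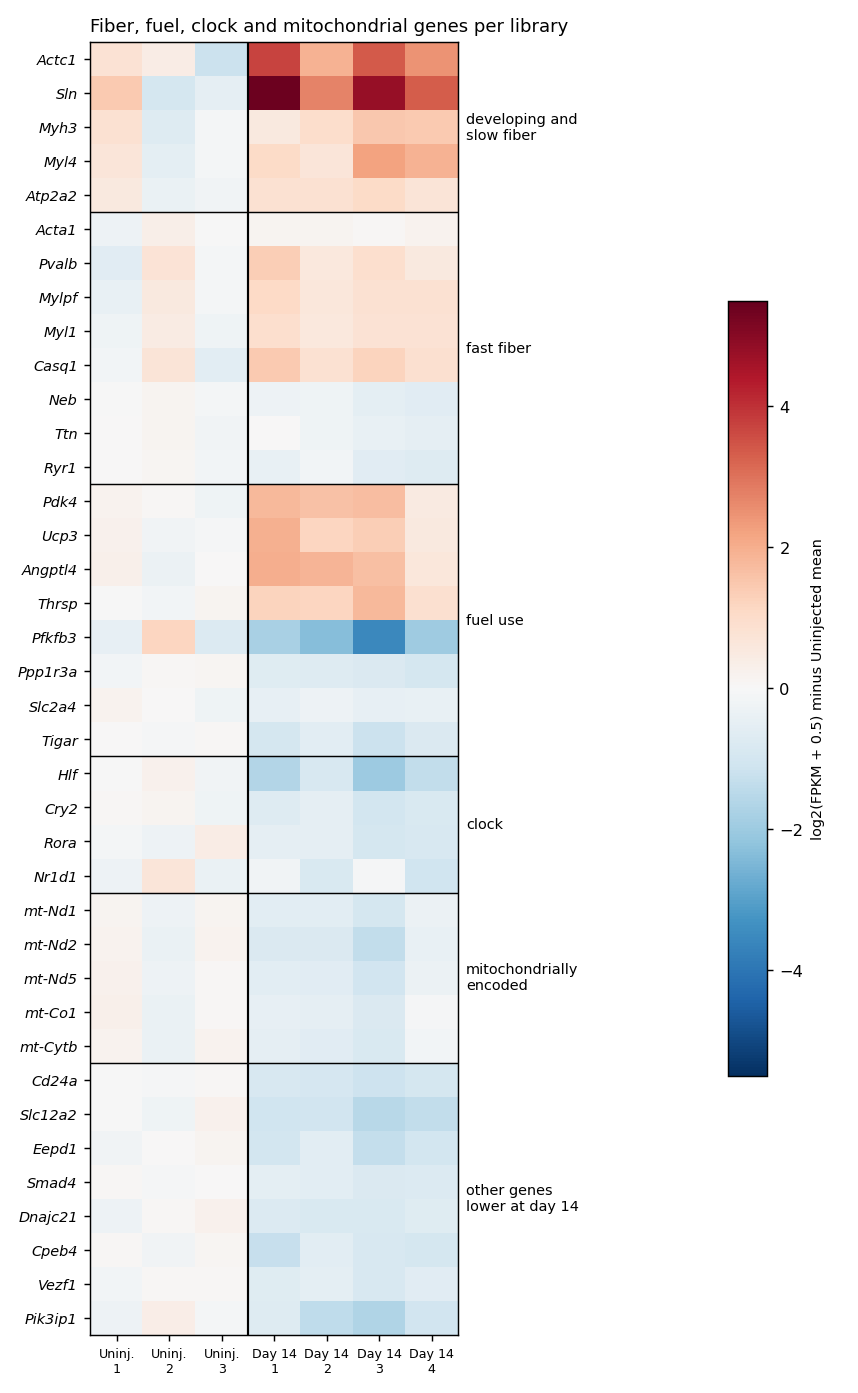
Log2(FPKM + 0.5) minus the Uninjected mean for fiber, fuel, clock, mitochondrially encoded and other lower genes (rows) in each Uninjected and day 14 library (columns), red above and blue below the Uninjected mean. Pdk4 is above in all 4 day 14 libraries (563, 486, 529 and 230.3 FPKM) and the clock genes Hlf, Cry2 and Rora are below.

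Turnover and stress lists held few separated genes, or held them in both directions, beside 6.70% above and 5.88% below over all genes. Lysosomal genes had 5 of 29 above and 3 below (median log2 fold change 0.12), with the collagen-degrading cathepsin Ctsk at 4.98, 5.75, 7.11 and 7.27 FPKM against 2.45, 1.67 and 0.507 FPKM (1.85, limma adjusted p = 0.136, with voom weights 0.0303) and progranulin, Grn, at 0.86. Proteasome genes had 2 of 31 above and 0 below, and none of 36 ribosomal protein genes separated (median 0.01). Chaperone genes had 3 of 34 above and 0 below. Growth and atrophy signals had 0 of 26 above and 1 below, and the atrophy ligase Fbxo32 measured 40.9, 34.3, 39.8 and 27.9 FPKM against 42.4, 45.8 and 131 FPKM (-0.84, adjusted p = 0.383). Glucocorticoid and starvation response genes had 2 of 21 above and 1 below, and immediate early genes 3 of 29 and 2. Atf3, a stress-induced factor, measured 2.69, 7.06, 5.702 and 4.56 FPKM against 1.15, 1.64 and 1.19 FPKM (1.53, adjusted p = 0.136, with voom weights 0.0472), and Klf4, a zinc finger factor, stood at -0.89. Oxidative stress and p53 genes had 2 of 27 above and 3 below, among the latter the quinone reductase Nqo1 at 6.34, 5.597, 5.44 and 4.297 FPKM against 11.7, 8.14 and 15.95 FPKM (-1.03). Amino acid and polyamine enzymes had 2 of 32 above and 3 below (median -0.19), and energy buffering genes 0 of 18 above and 2 below (median -0.09).

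**Figure D4:**
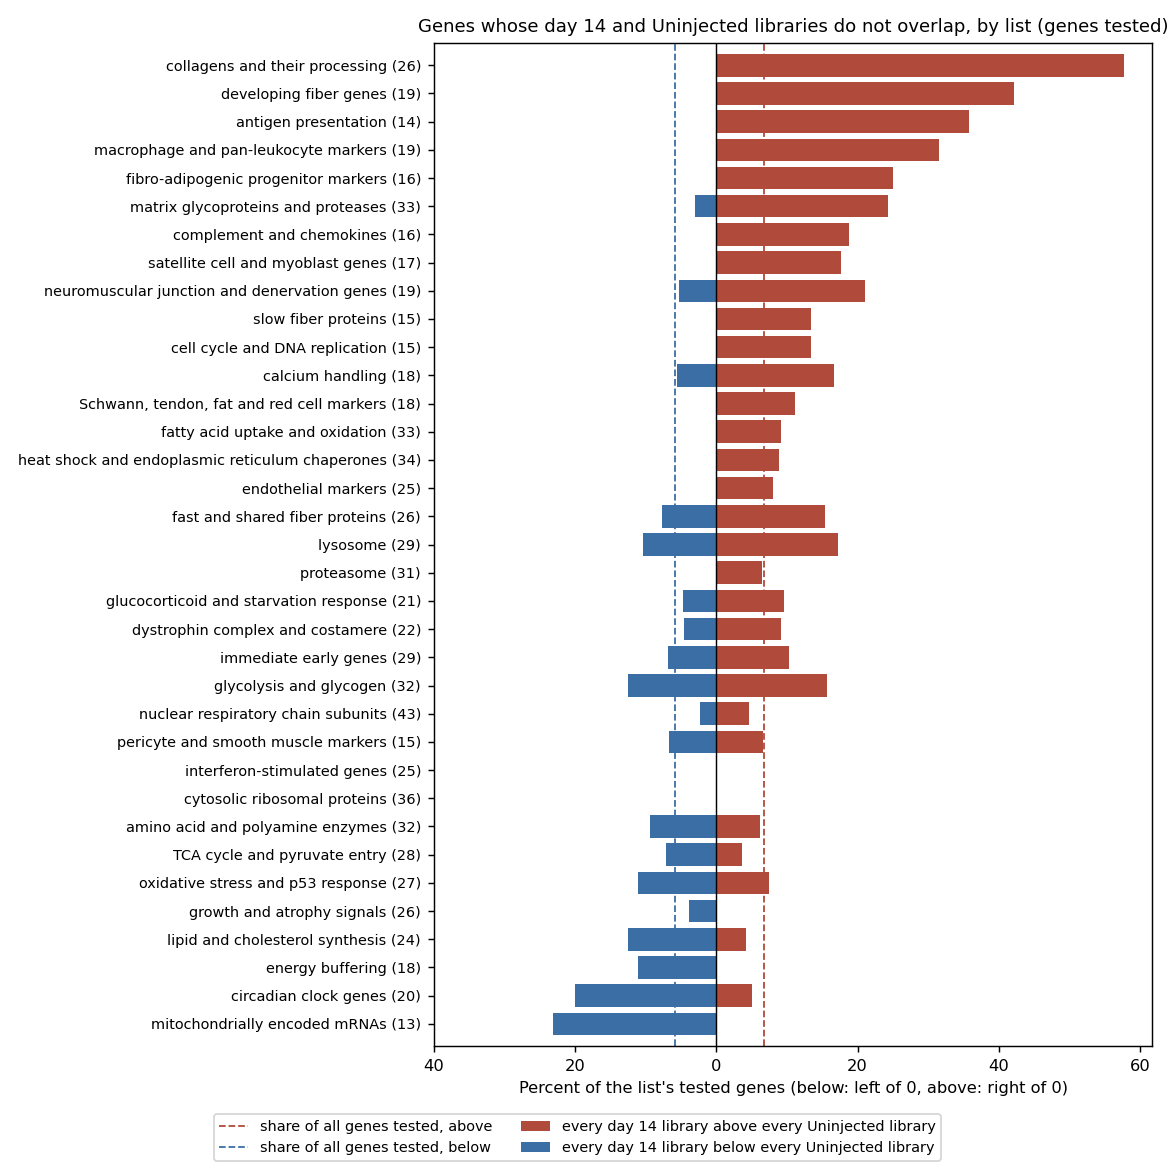
Percent of each list's tested genes (number in brackets) with every day 14 library above every Uninjected library (right of 0) or below (left of 0); dashed lines give 6.70% and 5.88%, the shares over all genes. On the deposited scale the collagens reach right with 15 of 26, and the mitochondrially encoded mRNAs left with 3 of 13. The lymphocyte list, with 2 tested genes, is not drawn.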

How the data were processed

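Poly-A RNA of mouse tibialis anterior was sequenced as paired ends. The values are FPKM per gene as deposited by the authors, with mm10 named as the build; for the aligner, the counter and the gene models, the sources used here give no name. Deposited columns holding the authors' own comparisons (log2 ratios of protein synthesis, p-values and repeated FPKM) were not used, and 0 columns of per-sample values were left over.

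Genes that reached 0.5 FPKM in 3 or more of the 7 libraries were tested on log2(FPKM + 0.5) with limma 3.58.1 in R 4.3.3 (trended, robust empirical Bayes, statmod 1.5.0; Benjamini-Hochberg over 12253 genes). Fold changes on this scale understate the change of low genes. A two-sided exact permutation test over 35 divisions of the libraries was run beside it. Fragments were recovered from FPKM with GENCODE M21 exon lengths (GRCm38): 92.9 to 95.3% of values under 50 fragments came out within 0.01 of a whole number. These fragments, with voom weights in limma, gave an alternative added after seeing the data. They also give the depth, 1479282 to 5544489 fragments in genes, and so a coarse precision for low genes.

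Genes were named by rule: called genes, or the next up to 10 per direction by p with a mean of at least 5 FPKM and groups that did not overlap; the members of highest level in each list; and genes the study names. Defining markers of other cell types came from a set list, whether or not their groups overlapped. Other genes named in the text were chosen after their values were seen, as members of their list whose groups did not overlap. The genes, the 36 lists and the tests were chosen with earlier results of these data known. Alternatives were other pseudocounts, filters, scalings, weights and fits, a replicate block and leaving out each library. Scripts were tested on simulated data. Promoter windows are RefSeq sequence, GRCm38.p6.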

Additional observations from a re-analysis of the deposited data

Results flagged for a closer look

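Of 156 values checked for a single library standing apart within the Maturation Stage, 6 were past the limit for a group of 4, where chance gives about 1 in 20. Gadl1 was one (gap as a share of the range 0.948), with replicate 2 at 7.06 FPKM and the next at 4.00 FPKM. Tnnc2 was another (1), listed at 0 in 3 libraries and at 0.491 FPKM in replicate 4. Tlcd2 (0.889) and Col3a1 (0.830) were highest in replicate 3, at 9.32 FPKM against 4.19 FPKM and at 73.5 FPKM against 40.6 FPKM. Replicate 2, the shallowest library, was lowest for the summed FPKM of cytosolic ribosomal proteins (0.834, 3856 against 4784) and of immediate early genes (0.882, 599 against 748).

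For 4 genes the day 14 libraries stood on one side of Uninjected muscle and the libraries of an earlier stage on the other. Pdk4 had a mean of 72.1 FPKM on day 7, 162 FPKM in Uninjected muscle and 452 FPKM on day 14, and the difference between day 14 and day 7 passed in limma (log2 2.59, adjusted p = 0.0407). Ucp3 followed the same order at 28.2, 44.3 and 113 FPKM, and its difference did not pass (log2 1.92, limma adjusted p = 0.0841). Thrsp had 4.46 FPKM on day 4, 9.44 FPKM in Uninjected muscle and 24.1 FPKM on day 14 (log2 2.62, limma adjusted p = 0.002503), and Myl1 had 2202.5, 4756 and 7897 FPKM (log2 2.18, limma adjusted p = 0.0107). These effects share the Uninjected libraries. The genes were picked because day 14 and the earlier stage lay on opposite sides of Uninjected muscle. The p-values between those stages are therefore not independent of the choice of genes.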

How the results depend on the processing

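The 3 higher and 0 lower calls became 0 and 0 with no filter on low values, with a replicate block and with the unpaired test on FPKM named in the study's methods (unadjusted p under 0.05 for 1057, 668 and 712 higher and 797, 381 and 699 lower genes). They became 7 higher and 1 lower with a filter of 2 FPKM, 8 and 1 in a fit of all 15 libraries, 16 and 3 with array quality weights, and 104 and 20 with voom weights. Leaving out each library gave 0 to 7 higher and 0 to 1 lower in limma, and 3 to 170 higher and 1 to 87 lower with voom weights. Same-numbered libraries deviated with correlations of -0.24, -0.02 and 0.01. With only 3 such correlations, whether the numbers pair the libraries cannot be decided. Wholly higher genes numbered 546 under the filter of 2 FPKM and 504 under the common non-mitochondrial total, which gave 1150 wholly lower. Over 118 genes named in the text and 2344 alternative values, 2239 kept their direction and side of the threshold, 65 came to pass, 29 no longer passed and 11, in 4 genes that passed in none, turned sign. The log2 fold change of Aldoa turned to 0.0553 with quantile normalization and 0.0074 with voom weights, and ran from -0.229 to 0.035 with each library left out. The log2 fold change of Ly6a turned to -0.0799 under the common non-mitochondrial total and -0.0395 with the replicate block, and ran from -0.300 to 0.250 with each library left out. Left-out libraries gave -0.170 to 1.37 for Ighm and -0.0768 to 0.337 for Cdh5, below 0 without Uninjected replicate 3 and 2 respectively. Of 47 further genes named by rule but given no fold change, 21 turned under an alternative. The cause of these changes was not tested. With 4 and 3 shallow libraries, a gene that missed the threshold is not shown to be equal between the groups.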
